A study of Mus musculus with 14 samples.

Results

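Chromatin accessibility around 10 genes of epithelial and mesenchymal cell shape was followed through GATA6-driven differentiation of mouse embryonic stem (ES) cells. The genes were the cadherins Cdh1 and Cdh2, the adhesion molecule gene Epcam, the claudins Cldn4, Cldn6 and Cldn7, the keratins Krt8, Krt18 and Krt19, and the vimentin gene Vim. ATAC-seq marks open chromatin with a transposase, and stretches where cuts pile up are called as peaks. The peaks of all 14 libraries were merged wherever they shared at least 1 bp, and each merged region was given to the protein-coding gene whose transcription start site (TSS) was nearest, up to 50 kb away. Of 124598 regions, 84402 had such a gene, and 90 of these belonged to 9 of the 10 genes. Cdh1 had 22 regions, Epcam 14, Cldn4 12, Cdh2 and Krt8 9 each, Krt18 and Krt19 8 each, Vim 5 and Cldn7 3, while no region was nearest to Cldn6. The farthest of the 90 lay 45.9 kb from the Cdh2 TSS, and the closest of 36 regions that fell outside the limit lay 50.2 kb from the same TSS.

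All libraries came from the KH2 mouse ES cell line (strain C57BL/6) carrying the transgene TRE:GATA6-DSREd2, in which doxycycline (Dox) switches on GATA6 together with a red fluorescent protein. The 0 h cells were grown in 2i medium with LIF and never received Dox. The 2, 4 and 8 h cells were moved to serum medium with LIF and 1 µg/mL Dox, and the 16, 24 and 48 h cells had Dox for 12 h and then serum medium without it. Each of the 7 time points had 2 libraries of 50000 cells, which were numbered replicates of 1 line. The study states that replicates were performed independently, without saying what was separate for each pair of libraries, and the p-values below measure the spread between these libraries, which may in part be technical. Since serum replaced 2i medium when Dox was added, the effects of the medium and of GATA6 cannot be told apart in any comparison with 0 h. A called region here is a peak in the deposited list of that library, and in a bulk culture fewer cells with an open region and a weaker opening in every cell cannot be told apart.

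E-cadherin, encoded by Cdh1, joins neighbouring epithelial cells through adherens junctions, and N-cadherin, encoded by Cdh2, is typical of mesenchymal and neural cells. Claudins seal tight junctions, while Krt8, Krt18 and Krt19 form the intermediate filaments of simple epithelia and vimentin forms those of mesenchymal cells. ES cells express E-cadherin, and primitive endoderm, the lineage that GATA6 specifies, is an early polarised epithelium of the embryo.

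The libraries held 55588 to 65073 peaks each, and read totals are not used here. Regions near 6 primitive endoderm marker genes (Gata6, Gata4, Sox17, Sox7, Pdgfra and Dab2) were called 12 and 15 times of 73 in the 0 h libraries and 44 and 43 times in the 48 h libraries. Regions near 6 ES and epiblast markers (Pou5f1, Sox2, Nanog, Esrrb, Klf4 and Prdm14) were called 32 and 40 times of 88 at 0 h and 35 and 40 times at 48 h. Regions near 6 trophectoderm markers (Cdx2, Eomes, Elf5, Tfap2c, Gata3 and Hand1) were called 27 and 31 times of 62 at 0 h and 28 and 29 times at 48 h. A peak near a marker gene is not its expression, so these counts check the labels only in part.

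The loci as a whole were least often called at 0 h. Of the 90 regions, 27 and 30 were called in the 0 h libraries. At 2 h it was 44 and 40, at 4 h 44 and 47, and at 8 h 44 and 42. The 16 h libraries called 52 and 47, those of 24 h 46 and 44, and those of 48 h 41 and 36. Every induced library was above both 0 h libraries. In percent, the mean was 31.7% ± 2.36 (SD, n = 2) at 0 h, 55.0% ± 3.93 at 16 h and 42.8% ± 3.93 at 48 h, whereas for all 84402 regions it was 47.1% ± 1.92, 52.5% ± 2.10 and 47.5% ± 1.83. The 90 regions were thus called less often than regions at large before induction and about as often from 2 to 24 h. With 2 libraries on each side no single time point can give an exact two-sided permutation p below 1 in 3, so gains and losses against 0 h are given as counts.

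A region was counted as gained when both libraries of a time point called it and neither 0 h library did, and as lost in the opposite case. From 2 to 24 h gains made up a larger share of these regions than of all regions, while at 48 h the order turned with how a call or the share was defined. At 2 h 18 of the 90 regions (20.0%) were gained, against 7.88% of all regions, and at 4 h 22 (24.4%) against 9.12%. At 8 h 16 (17.8%) were gained against 10.3%, at 16 h 19 (21.1%) against 12.6%, and at 24 h 19 (21.1%) against 11.4%. At 48 h 14 (15.6%) were gained against 14.1%, but with peaks required to cover 50% of a region it was 9 (10.0%) against 14.1%, and with the 50000 highest-scoring peaks of each library 12 (13.3%) against 13.7%.

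Only regions called in neither 0 h library could be gained, and these were 56 of the 90 (62.2%) against 46.2% of all regions. Out of those 56, 32.1% were gained at 2 h, against 17.1% of all regions that could be gained, and 39.3% against 19.8% at 4 h. The shares were 28.6% against 22.4% at 8 h, 33.9% against 27.2% at 16 h and 33.9% against 24.7% at 24 h. At 48 h the order was the other way, with 25.0% against 30.6%. These shares were computed after the counts had been seen.

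As a share of all 90 regions, losses were close to those of all regions at 2 h and 4 h and fewer later. The 5 regions lost at 2 h made up 5.56% against 5.61% of all regions, and the 5 lost at 4 h 5.56% against 6.34%. At 8 h 3 regions (3.33%) were lost against 8.27%, at 16 h 2 (2.22%) against 8.0%, at 24 h 5 (5.56%) against 11%, and at 48 h 7 (7.78%) against 14.4%. Only 23 of the 90 regions were called in both 0 h libraries and could be lost. Of these 23 the losses were 21.7% at 2 h against 13.9% of all regions that could be lost, 21.7% against 15.7% at 4 h, and 30.4% against 35.6% at 48 h, so the order at 2 h and 4 h depends on the regions counted. All 6 time points share the 0 h libraries, so their counts are not independent of each other, and the counts have no test.

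**Figure D1:**
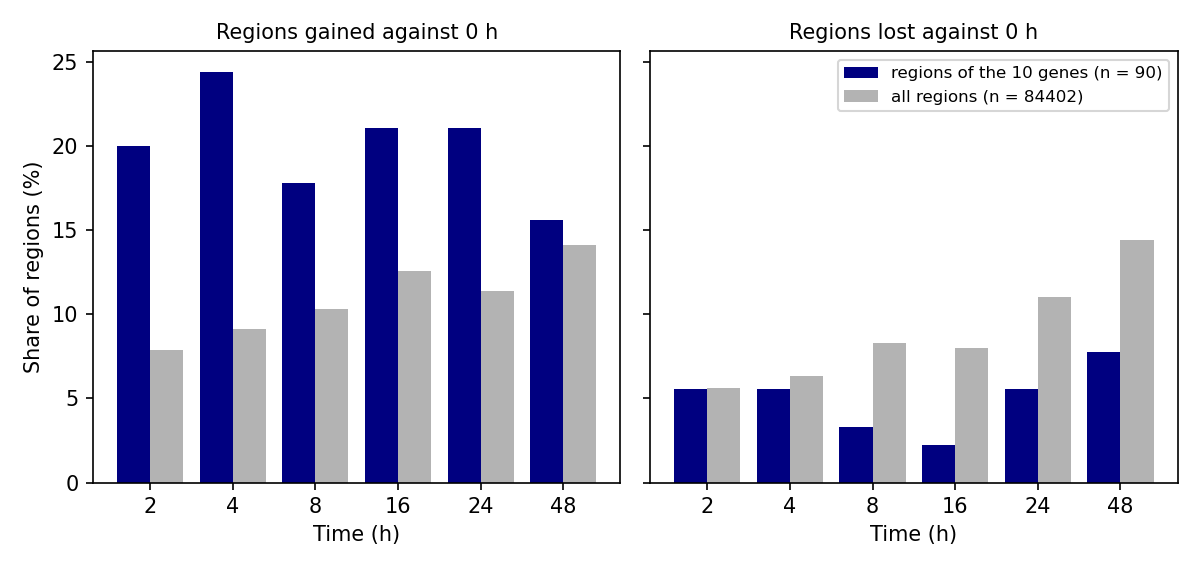
Bars give the percent of the 90 regions of the 10 genes (blue) and of all 84402 regions (grey) that were gained (left) or lost (right) at each time point in hours against 0 h. The blue bars for gains stand at 20.0% at 2 h and 15.6% at 48 h, where the grey bars are 7.88% and 14.1%.

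Many gains did not last. Of the 18 regions gained at 2 h, 9 (50.0%) were still called in both libraries at 24 h, against 25.0% of all regions gained at 2 h, and 5 (27.8%) at 48 h, against 20.2%. At 48 h 11 (61.1%) were called in neither library, against 74.0%. In all, 37 of the 90 regions (41.1%, against 29.0% of all regions) were gained at 1 or more time points, and 4 (4.44%, against 1.15%) at every one. Of the regions that could be gained, 66.1% were gained at least once, against 62.7%. Among the 37, 18 opened in passing, with no call at 0 h or 48 h and with calls from both replicates at some intermediate time (20.0%, against 12.4% of all regions). Out of the regions called in neither 0 h library, this share was 32.1%, against 26.9%. Regions called in all 14 libraries numbered 10 (11.1%, against 19.2% of all regions), and 19 regions (21.1%, against 16.7%) were called in 1 library only.

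**Figure D2:**
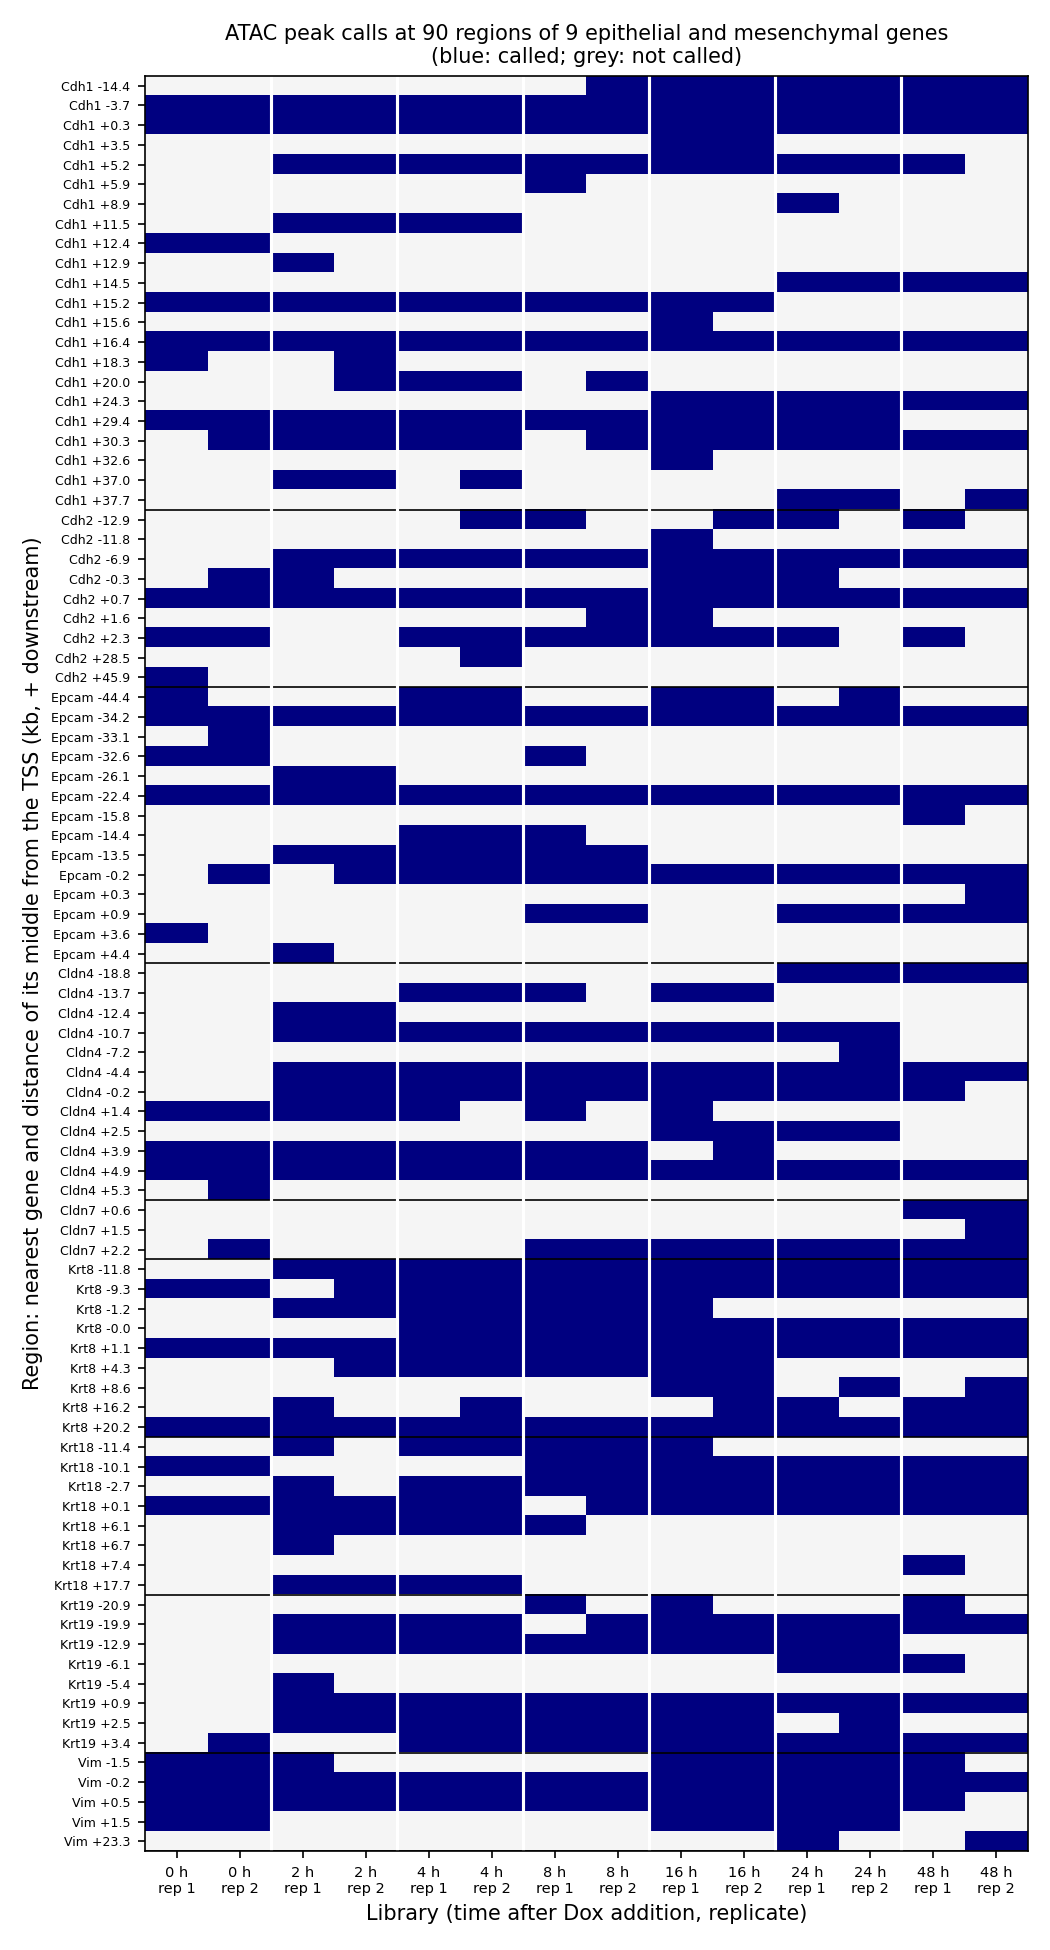
Each row is 1 of the 90 regions, labelled by its nearest gene and the distance of its middle from the TSS in kb, and each column is 1 library ordered by time, with called regions in blue. Many keratin rows fill from 2 or 4 h, some only in passing. Of the 25, 5 and 6 were called in the 0 h libraries, 17 and 18 at 4 h, and 15 and 13 at 48 h.

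A region that opens or closes steadily was sought with an exact two-sided permutation test of its calls against the rank of time over the 14 libraries, adjusted by the Benjamini-Hochberg method over 51020 regions called in 2 to 12 libraries. Of 58 regions of the 10 genes tested, 7 rose (12.1%, against 12.5% of all regions tested) and 3 fell (5.17%, against 10.6%). At an unadjusted threshold of 0.05 the number was 21 (36.2%), against 44.6% of all regions tested. A region called only in the 2 libraries at 48 h, or in all but the 2 at 0 h, has p = 0.022 and an adjusted p of 0.057 in this permutation test, so such regions could not pass it.

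The sequences of 8 regions that were gained or lost at 48 h are shown because the results for the single genes turn on them. Each is the central 200 bases of the region on the plus strand of GRCm38, read from the RefSeq assembly, and 75 and 90 bases in annotated UTRs of Epcam and Krt8 were left out. No sequence is given for Cdh2. Capitals mark matches on either strand to a GATA motif (AGATAA or else AGATAG, and with T as the opening letter TGATAA or else TGATAG) or to the AP-1 motif TGANTCA.
Cdh1 24.3 kb downstream, gained, chr8:106627586-106627785: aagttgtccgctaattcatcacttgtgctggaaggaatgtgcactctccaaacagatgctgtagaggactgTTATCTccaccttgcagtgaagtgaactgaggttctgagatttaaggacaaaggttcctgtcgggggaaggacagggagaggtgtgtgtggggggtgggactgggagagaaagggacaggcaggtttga
Cdh1 15.2 kb downstream, lost, chr8:106618413-106618612: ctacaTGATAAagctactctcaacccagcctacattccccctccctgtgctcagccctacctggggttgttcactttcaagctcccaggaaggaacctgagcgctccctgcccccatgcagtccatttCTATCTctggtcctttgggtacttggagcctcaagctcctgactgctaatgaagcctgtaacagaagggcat
Cldn4 18.8 kb upstream, gained, chr5:134965587-134965786: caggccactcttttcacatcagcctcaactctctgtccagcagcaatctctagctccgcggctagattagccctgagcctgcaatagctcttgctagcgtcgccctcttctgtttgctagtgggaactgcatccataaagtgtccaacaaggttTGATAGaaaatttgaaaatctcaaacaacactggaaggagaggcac
Cldn4 3.9 kb downstream, lost, chr5:134942889-134943088: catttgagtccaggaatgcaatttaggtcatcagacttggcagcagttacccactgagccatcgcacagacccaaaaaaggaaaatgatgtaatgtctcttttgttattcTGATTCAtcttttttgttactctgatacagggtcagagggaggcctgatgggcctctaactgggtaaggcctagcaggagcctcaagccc
Epcam 0.9 kb downstream, gained, chr17:87636819-87636943: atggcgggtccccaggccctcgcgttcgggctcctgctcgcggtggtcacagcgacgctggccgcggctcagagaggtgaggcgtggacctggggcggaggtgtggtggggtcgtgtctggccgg
Krt8 TSS, gained, chr15:102004483-102004592: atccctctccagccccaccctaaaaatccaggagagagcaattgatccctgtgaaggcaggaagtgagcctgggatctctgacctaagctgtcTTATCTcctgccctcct
Krt18 2.7 kb upstream, gained, chr15:102025407-102025606: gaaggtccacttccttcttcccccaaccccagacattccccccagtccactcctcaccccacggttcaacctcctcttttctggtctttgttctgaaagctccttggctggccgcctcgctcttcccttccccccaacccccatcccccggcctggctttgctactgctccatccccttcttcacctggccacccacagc
Krt19 0.9 kb downstream, gained, chr11:100147679-100147878: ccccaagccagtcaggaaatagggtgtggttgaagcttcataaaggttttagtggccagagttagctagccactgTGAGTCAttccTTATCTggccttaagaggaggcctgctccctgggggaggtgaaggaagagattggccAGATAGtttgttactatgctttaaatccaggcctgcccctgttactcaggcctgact

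Within their central 200 bases, 30 of the 90 regions (33.3%) held a GATA motif, against 32.2% of all regions. Of the 14 gained at 48 h it was 8 (57.1%), against 54.4% of all regions gained at 48 h, and of the 18 gained at 2 h it was 9 (50.0%) against 45.5%. The AP-1 motif was found in 22 of the 90 (24.4%), against 10.6% of all regions. Of the 18 regions gained at 2 h 9 (50.0%) held it, against 44.5% of all regions gained at 2 h, and of the 13 regions called in all 4 libraries of 0 and 48 h 5 (38.5%) did, against 4.34%. The Grainyhead-like motif AACCNGTT, named for a family of epithelial transcription factors, was present in 1 region (1.11%, against 1.51% of all regions), which lay 1.4 kb downstream of the Cldn4 TSS. A match of letters is a description and not a bound site.

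Cdh1 (ENSMUSG00000000303, chromosome 8, 106603351 to 106670246, plus strand) kept its promoter open while regions in its introns changed. The region over the TSS was called in all 14 libraries, with a score above 77.4% to 92.9% of the peaks in the same library. This within-library score percentile was 92.0 and 85.9 at 0 h and 92.9 and 91.3 at 48 h, a range within which it did not pass the threshold for a difference over time (adjusted p = 0.0711, exact permutation F test). That test ran over all 135135 ways to split 14 libraries into 7 pairs.

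At Cdh1, 3 regions rose with time and 1 fell, and 2 of these 4 calls depended on the definition of a called region. Of its 22 regions 8 were not tested for a trend, and of all regions tested 12.5% rose and 10.6% fell. The region 14.4 kb upstream, between genes, was called in 1 library at 8 h and in both at 16, 24 and 48 h (adjusted p = 0.014, exact permutation trend test). Its score percentile was 27.6 and 17.5 at 16 h, 74.4 and 68.9 at 24 h, and 88.8 and 85.0 at 48 h. The region 24.3 kb downstream, in an intron, was called in both libraries from 16 h on, and that at 14.5 kb, also intronic, in both at 24 and 48 h (adjusted p = 0.014 for each, exact permutation trend test). The intronic region at 15.2 kb went the other way and was called in every library to 16 h and in none at 24 or 48 h (adjusted p = 0.014, exact permutation trend test). With 50% of the region covered, the region at 14.5 kb had an adjusted p of 0.227, and with the 50000 highest-scoring peaks that at 15.2 kb had 0.0817, so neither passed the exact permutation trend test there.

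A different intronic region, 29.4 kb downstream, was called in the 12 libraries to 24 h and in neither at 48 h, and the one at 12.4 kb was called in the 0 h libraries alone. Both were counted as lost at 48 h (adjusted p = 0.057 for each, exact permutation trend test). The intron region at 5.2 kb was called in both libraries from 2 to 24 h and in 1 at 48 h, and that at 11.5 kb was called at 2 and 4 h only. The gene had 7 called regions in each 0 h library, 10 and 11 at 2 h, 12 and 10 at 16 h, and 8 in each at 48 h. Of its 22 regions, 3 were gained and 3 lost at 48 h, near the 14.1% and 14.4% of all regions.

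Cdh2 (ENSMUSG00000024304, chromosome 18, 16588877 to 16809246, minus strand) changed less in number, and a region near its start had its lowest mean score at 48 h. That region, with its middle 0.7 kb downstream, covers another annotated transcript start but not the TSS of the gene, and was called in all 14 libraries. Its score percentile was 17.8 and 32.3 at 0 h, 59.1 and 61.7 at 24 h, and 6.62 and 20.7 at 48 h. The groups at 24 and 48 h did not overlap, while those at 0 and 48 h did. The difference over time missed the threshold (adjusted p = 0.068, exact permutation F test). The region that covers the TSS of the gene, with its middle 0.3 kb upstream, was called in both libraries only at 16 h and in 1 library at 0, 2 and 24 h.

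One distal Cdh2 region, 6.9 kb upstream, was called in neither 0 h library and in all 12 induced ones. Its score percentile was 42.5 and 56.2 at 2 h, 88.5 and 80.2 at 4 h, 35.6 and 40.2 at 24 h, and 2.41 and 7.48 at 48 h. The call therefore remained to the end while the score sank to the lowest ranks of the list. Of the other Cdh2 regions, 3 were called in 1 library each. With transcript-level TSSs 17 regions in place of 9 were assigned to Cdh2, so its smaller change in number is stated for the 9 only.

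**Figure D3:**
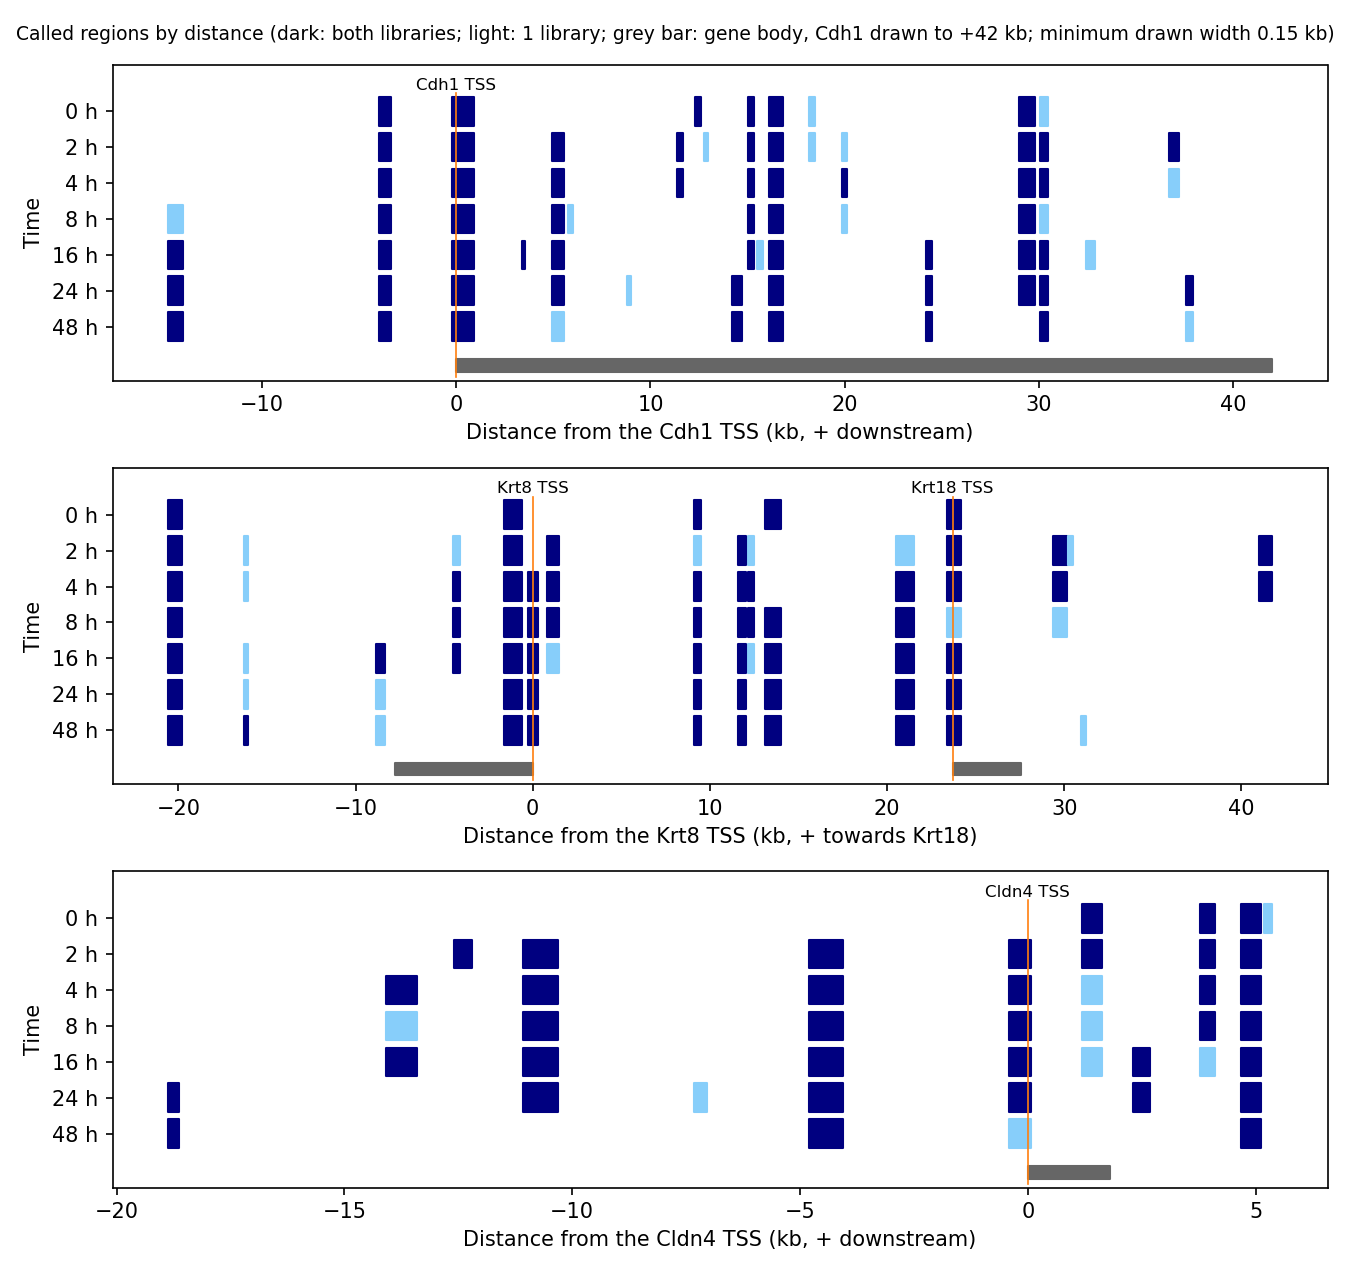
Boxes mark called regions at Cdh1, at the neighbouring Krt8 and Krt18, and at Cldn4 by distance from the TSS in kb (horizontal) and time (vertical), dark where both libraries called them and light where 1 did. Around Cdh1 the region 15.2 kb downstream ends after 16 h, while those at 14.4 kb upstream and 24.3 kb downstream are filled in both libraries from 16 h.

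Epcam (ENSMUSG00000045394, chromosome 17, 87635979 to 87651129, plus strand) encodes an epithelial cell adhesion molecule that ES cells also express. Its most marked change was in the score of a distal region. The region 34.2 kb upstream was called in all 14 libraries, and its score percentile was 73.4 and 75.2 at 0 h, 51.3 and 49.8 at 2 h and 71.4 and 67.4 at 4 h. At 8 h it was 82.8 and 89.3, at 16 h 91.4 and 92.8, and from there to 48 h it stayed at 93.5 to 95.1. The 2 h libraries were lowest and those from 16 h on highest, with no overlap between them (adjusted p = 0.00307, exact permutation F test). The region 22.4 kb upstream had 90.2 and 89.6 at 48 h against 64.0 and 79.2 at 0 h (adjusted p = 0.079, exact permutation F test).

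At the Epcam promoter, a region over the TSS with its middle 0.2 kb upstream was called in 1 library each at 0 and 2 h and in both at every later time point. A further region, 0.9 kb downstream, was called in neither library to 4 h nor at 16 h, and in both at 8, 24 and 48 h. It rose with time (adjusted p = 0.0476, exact permutation trend test), although the call was lost in 8 of the 14 fits that left out 1 library and with 50% of the region covered (adjusted p = 0.287). The region 13.5 kb upstream was open only in passing, in both libraries at 2, 4 and 8 h and in none before or after. The region 32.6 kb upstream was called in both 0 h libraries and, apart from 1 library at 8 h, not again.

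Cldn4 (ENSMUSG00000047501, chromosome 5, 134945119 to 134946934, minus strand), a claudin of many epithelia, gained regions at 2 h and was back at its 0 h count by 48 h. Its regions were called 3 and 4 times at 0 h, 7 times in each library at 2 h, 6 and 7 times at 24 h, and 4 and 3 times at 48 h. The TSS region, 0.2 kb upstream, was called in no 0 h library and in both at each time point from 2 to 24 h. Its score percentile was 92.8 and 84.3 at 2 h, 74.1 and 64.0 at 16 h, and 48.4 and 56.0 at 24 h, and at 48 h 1 library called it, at 14.4.

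On the other side of Cldn4, regions open at 0 h faded. The region 3.9 kb downstream was called in every library to 8 h, in 1 at 16 h and in none later, and it fell with time (adjusted p = 0.014, exact permutation trend test). The region 1.4 kb downstream, over an exon, fell as well (adjusted p = 0.0476, exact permutation trend test), a call lost in 10 of the 14 fits without 1 library, with 50% of the region covered (adjusted p = 0.0527) and without the 0 h libraries (0.0942). The region 4.9 kb downstream, over an exon of the next gene Mettl27, was called in all 14 libraries, and its score percentile went from 93.7 and 91.4 at 0 h through 78.8 and 81.6 at 24 h to 15.8 and 21.2 at 48 h (adjusted p = 0.0271, exact permutation F test). Without replicate 1 or replicate 2 of 24 h, the adjusted p of this region was 0.0567 and 0.076, and with the percentile of its covered width in place of its score it was 0.12 (exact permutation F test).

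Upstream of Cldn4, the region at 18.8 kb appeared in both libraries at 24 and 48 h and rose with time (adjusted p = 0.014, exact permutation trend test). The regions at 4.4 and 10.7 kb opened in both libraries at 2 h. The former was kept in both at 48 h, and the latter was called in neither. Of its 12 regions, Cldn4 therefore had 2 gained and 2 lost at 48 h, and 4 open only in between. For all regions the shares were 14.1%, 14.4% and 12.4% in that order, so the gains and losses of Cldn4 at 48 h were near those of all regions.

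Cldn7 (ENSMUSG00000018569, chromosome 11, 69964779 to 69967885, plus strand) had a region near its start that was called only late. That region, 0.6 kb downstream, spans another annotated transcript start and begins downstream of the TSS of the gene. It was called only at 48 h, in both libraries, with score percentiles of 52.1 and 64.8. The region 2.2 kb downstream, which spans the start of a shorter transcript, was called in 1 library at 0 h and in both from 8 h on (adjusted p = 0.057 for each of the 2 regions, exact permutation trend test). Per library, Cldn7 had 0 to 1 called regions to 24 h and 2 and 3 at 48 h.

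Cldn6 (ENSMUSG00000023906, chromosome 17, 23679249 to 23682446, plus strand) lies among closely spaced genes, and none of the 124598 regions had its TSS as the nearest. The region closest to its TSS, 1.8 kb away, covers the start of Tnfrsf12a and was called in 1 library at each of 2, 4 and 8 h and in both from 16 h on. A region inside the gene, over an exon and 3.0 kb from its TSS, was assigned to Cldn9, whose start is 1.8 kb off, and was called only at 48 h, in both libraries. Values for Cldn6 itself are therefore 0 regions at every time point by the rule used here.

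Krt8 (ENSMUSG00000049382, chromosome 15, 101996698 to 102004482, minus strand) gained its promoter after 2 h. The region over the TSS was called in neither library at 0 and 2 h and in both from 4 h on (adjusted p = 0.014, exact permutation trend test). Its score percentile was 26.0 and 28.0 at 4 h, 56.7 and 57.0 at 8 h and 70.4 and 76.8 at 16 h. It was 93.6 and 89.2 at 24 h and 96.2 and 97.6 at 48 h, so these 5 time points did not overlap. Without the 0 h libraries the adjusted p was 0.0652.

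A distal region assigned to Krt8, but lying about midway between the TSSs of Krt8 and Krt18, went through the reverse order. The region 11.8 kb upstream was called in neither 0 h library and in all 12 later ones, and its score percentile was 97.3 and 96.3 at 2 h, 93.0 and 92.5 at 16 h, 77.4 and 71.9 at 24 h, and 54.5 and 49.4 at 48 h. The intronic region 1.1 kb downstream was called in all 14 libraries, at 71.9 and 69.1 at 0 h and at 34.7 and 16.6 at 48 h, a difference that missed the threshold (adjusted p = 0.066, exact permutation F test). The region 1.2 kb upstream was called in both libraries at 2, 4 and 8 h, in 1 at 16 h and in none at 0, 24 or 48 h.

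Krt18 (ENSMUSG00000023043, chromosome 15, 102028180 to 102032027, plus strand) encodes the filament partner of keratin 8, and the TSSs of the pair lie 23.7 kb apart and point away from each other. The Krt18 TSS region was called in all libraries but 1, at 8 h, so the promoters of the pair differed at 0 h. The region 2.7 kb upstream was called in no 0 h library, in 1 at 2 h and in both from 4 h on, and rose with time (adjusted p = 0.0476, exact permutation trend test). That call was lost in 11 of the 14 fits without 1 library. The regions 6.1 and 17.7 kb downstream were both called at 2 and 4 h and not at 16 h or later. The region 10.1 kb upstream was called in both libraries at 0 h, in none at 2 and 4 h, and in both from 8 h on. The Krt8 region 11.8 kb upstream and the Krt18 region 11.4 kb upstream lay 111 bp apart, so the split by nearest TSS divides a shared stretch.

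Krt19 (ENSMUSG00000020911, chromosome 11, 100140810 to 100148665, minus strand) was almost without calls before induction. Of its 8 regions 0 and 1 were called at 0 h, 5 and 4 at 2 h, 5 in each library at 4 h and at 8 h, 6 and 5 at 16 h, 5 and 6 at 24 h, and 5 and 3 at 48 h. The 0 h libraries were below all others. The region nearest the TSS, 0.9 kb downstream in an intron, was called in neither 0 h library and in all 12 later ones. Its score percentile was 41.1 and 31.4 at 2 h, 74.1 and 84.2 at 4 h and 21.2 and 13.1 at 48 h. A region 2.5 kb downstream, over the start of a shorter transcript, was called in both libraries from 2 to 16 h, at 88.4 and 82.8 at 2 h and 32.2 and 38.1 at 16 h, and in neither at 48 h. The region 12.9 kb upstream was called in both libraries from 2 to 24 h and in neither at 48 h.

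Over the 3 keratins, 8 of their 25 regions were gained at 2 h (32%, against 7.88% of all regions) and 12 at 4 h (48.0%, against 9.12%). The number was 9 at both 8 h and 16 h (36.0%, against 10.3% and 12.6%), 7 at 24 h (28.0%, against 11.4%) and 6 at 48 h (24.0%, against 14.1%). At both 2 h and 4 h 1 keratin region was lost (4.0%, against 5.61% and 6.34%), and 0 from 8 h on, against 14.4% of all regions at 48 h. Only 5 and 6 of the 25 keratin regions were called in the 0 h libraries, so most could be gained and few could be lost. For all regions that could be gained, 30.6% were gained at 48 h, and for the 56 such regions of the 10 genes 25.0%. That share was not computed for the keratins. The 24.0% against 14.1% therefore does not show a larger share among the keratin regions that could be gained. The 31 cadherin regions had 4 gains at 2 h (12.9%, against 7.88%) and 4 at 48 h, which at 12.9% was near the 14.1% of all regions, with 3 losses at 48 h (9.68%, against 14.4%). The 29 regions of Epcam and the claudins had 6 gains at 2 h (20.7%, against 7.88%), and their 4 gains (13.8%) at 48 h were again near the share of all regions, with 3 losses (10.3%, against 14.4%). These groups were not tested against each other.

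Vim (ENSMUSG00000026728, chromosome 2, 13573927 to 13582826, plus strand), the mesenchymal filament gene, had 4 of its 5 regions called in each 0 h library. A region called there could not be gained, so gains had little room, and Vim had none at any time point. Its TSS region was called in all 14 libraries, at a score percentile of 85.8 and 80.7 at 0 h, 93.4 and 94.7 at 2 h, and 83.0 and 70.4 at 48 h (adjusted p = 0.162, exact permutation F test). The region 1.5 kb downstream, over an exon, was called in both libraries at 0, 16 and 24 h and in none at 2, 4, 8 or 48 h. The region 1.5 kb upstream had a similar course, with calls in both libraries at 0, 16 and 24 h and in none at 4 and 8 h. Per library 4 regions were called at 0 h, 2 at 4 h and at 8 h, 4 at 16 h, and 3 and 2 at 48 h.

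**Figure D4:**
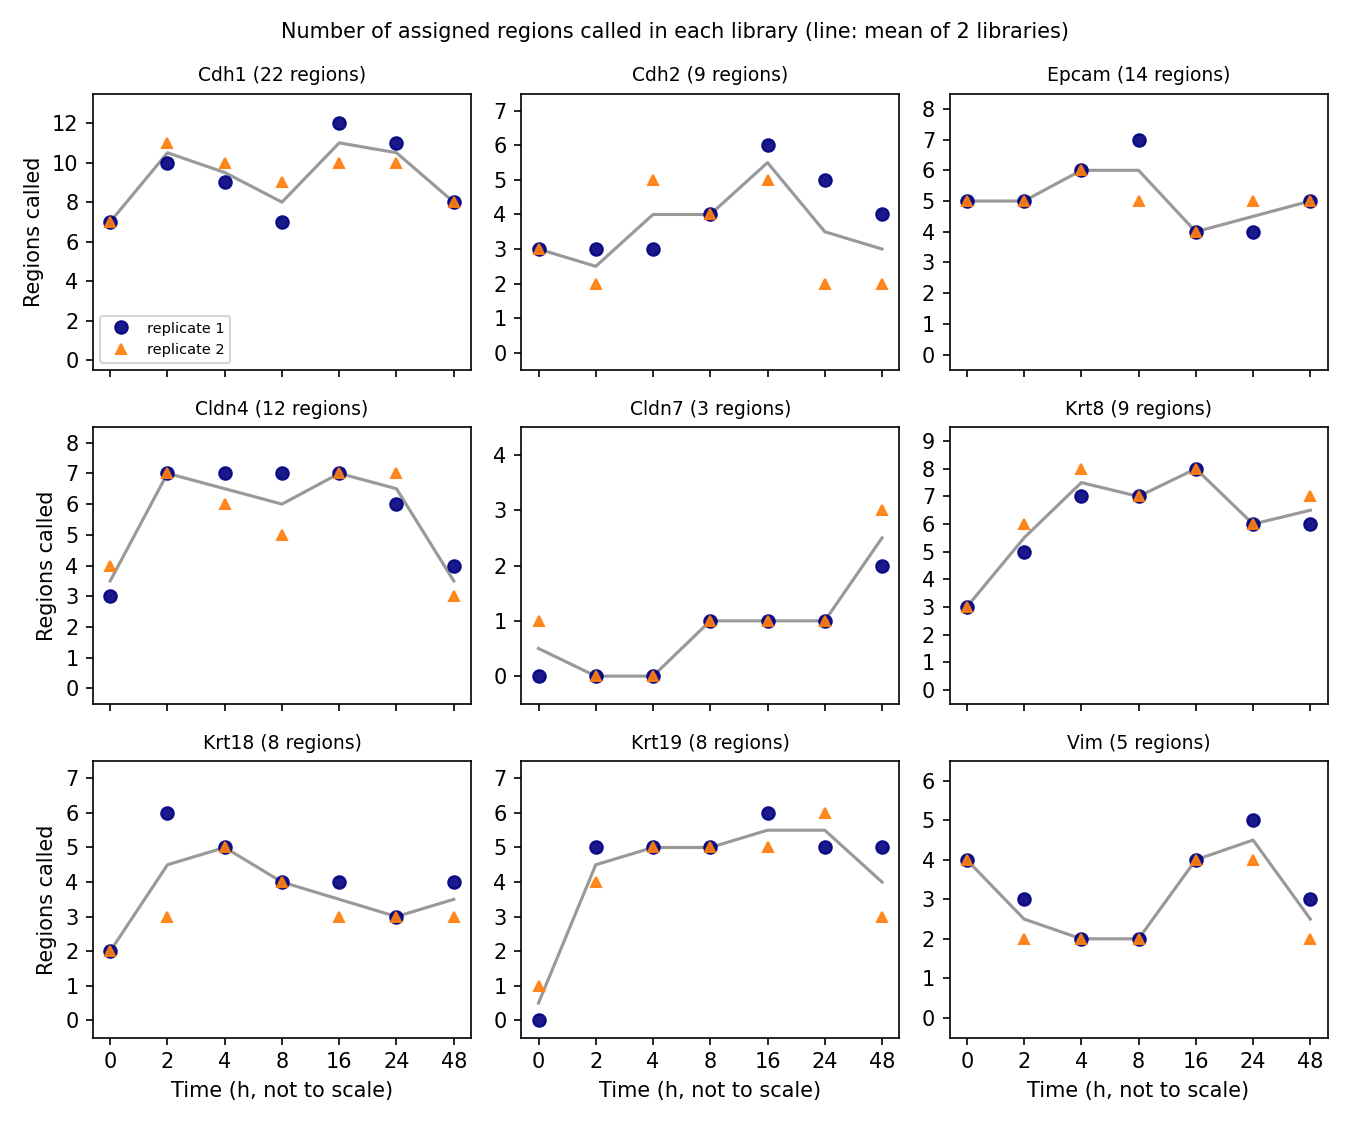
Panels give the number of regions called in each library (circle, replicate 1; triangle, replicate 2) against time in hours for the 9 genes with regions, with a line through the mean. Krt19 goes from 0 and 1 at 0 h to 5 and 4 at 2 h, Cldn4 peaks between 2 and 24 h, and Vim dips to 2 at 4 and 8 h.

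The number of called regions per gene was compared between the 7 time points by the exact permutation F test over 16259 genes, and no gene passed after adjustment (0.0%). At an unadjusted exact permutation p under 0.05 it was 27.0% of all genes and 5 of the 9 genes described here, which were Krt8 (p = 0.0032, adjusted p = 0.0727), Cldn7 (p = 0.0117, adjusted p = 0.0878), Vim (p = 0.0183, adjusted p = 0.105), Cldn4 (p = 0.0241, adjusted p = 0.116) and Cdh1 (p = 0.0258, adjusted p = 0.12). Krt19 had p = 0.0505, Epcam 0.135, Krt18 0.173 and Cdh2 0.372 in the same exact permutation test. With covered base pairs in place of the number of regions, Krt19, Epcam, Cldn4 and Krt8 passed, each at an adjusted p between 0.0382 and 0.0413, as did 22.1% of all 17824 genes.

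Of the 16240 regions called in every library, 31.1% differed in score percentile over time, and of the 10 such regions at these genes it was 3. They were the Epcam region 34.2 kb upstream, the Cldn4 region 4.9 kb downstream and the Cdh1 region 3.7 kb upstream. The last stood at 76.6 and 74.3 at 0 h, 52.9 and 62.6 at 2 h, 91.9 and 82.9 at 16 h and 74.5 and 66.3 at 48 h (adjusted p = 0.0354, exact permutation F test), a call lost in 11 of the 14 fits without 1 library and with the percentile of covered width (adjusted p = 0.296). By covered width 9.31% of all regions called in every library differed over time. The Krt8 region 20.2 kb downstream was at 85.7 to 94.6 in all libraries (adjusted p = 0.116, exact permutation F test).

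**Figure D5:**
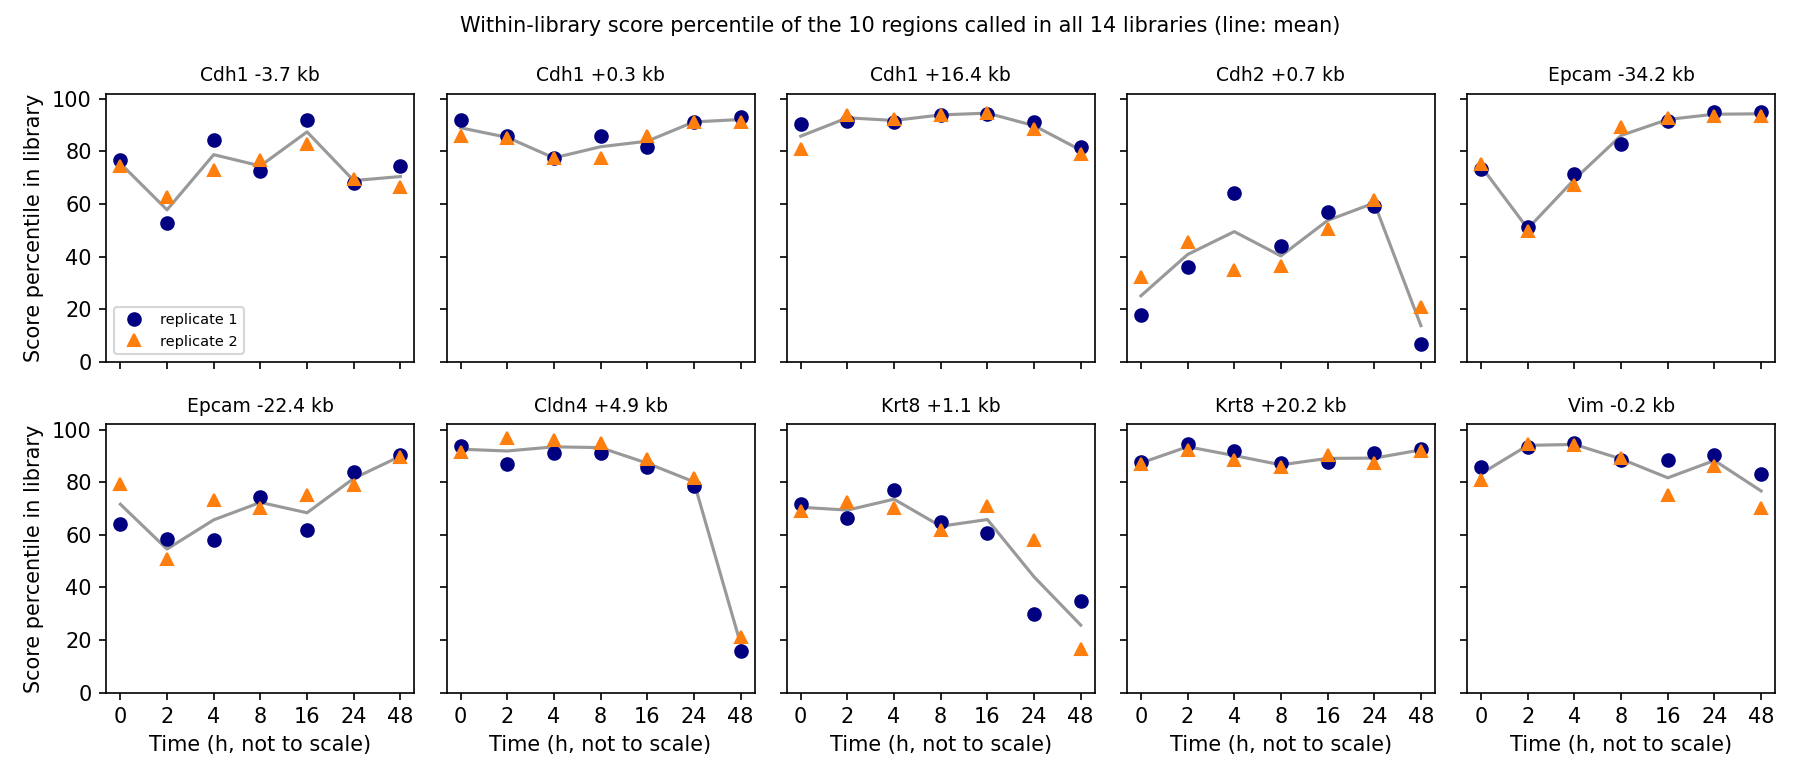
Panels give the score percentile within each library (circle, replicate 1; triangle, replicate 2; line, mean) against time in hours for the 10 regions called in all 14 libraries. The Epcam region 34.2 kb upstream dips to 51.3 and 49.8 at 2 h and ends at 95.1 and 93.5, while the Cldn4 region 4.9 kb downstream ends at 15.8 and 21.2.

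Other genes of the same structures, 61 in all, were counted in the same way. Their 447 regions had 51 gains at 2 h (11.4%, against 7.88% of all regions), 73 gains at 48 h (16.3%, against 14.1%) and 74 losses at 48 h (16.6%, against 14.4%). Of 303 tested for a trend 43 rose (14.2%, against 12.5%) and 38 fell (12.5%, against 10.6%). For tight junction genes 14 of 103 regions (13.6%) were gained and 16 (15.5%) lost at 48 h, both near the background, and for adherens junction genes 27 of 113 (23.9%) were gained and 21 (18.6%) lost. Desmosome genes had 11 of 64 regions gained at 2 h (17.2%), 8 gained at 48 h (12.5%) and 10 lost at 48 h (15.6%). Further keratin and intermediate filament genes had 5 of 51 gained at 2 h (9.8%), 8 gained at 48 h (15.7%) and 6 lost at 48 h (11.8%), and epithelial and mesenchymal transcription and splicing factors had 16 of 116 gained (13.8%) and 21 lost (18.1%) at 48 h. The lists were not tested against the 10 genes.

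No gene of these lists passed the F test after adjustment, and 17 of 58 tested (29.3%, against 27.0% of all genes) had an unadjusted p under 0.05. The median F over the 58 was 2.83, and over all genes also 2.83. Among them, chosen after their values were seen, Cgn, which encodes the tight junction protein cingulin, had 3 regions gained and 0 lost at 48 h, with 3 and 4 called at 0 h and 6 in each library at 48 h. Cldn5, a claudin of endothelium, had 5 of 8 regions lost at 48 h, with 6 and 7 called at 0 h and 1 in each library at 48 h.

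The gene whose covered base pairs followed each of the 9 genes most closely over the 14 libraries, among genes with 3 or more regions and over 1 Mb away, was Scamp4 for Cdh1 (Pearson r = 0.857), Mmd for Cdh2 (0.92), Igsf11 for Epcam (0.861), Crygn for Cldn4 (0.924), Xbp1 for Cldn7 (0.898), Mfge8 for Krt8 (0.967), Snrnp48 for Krt18 (0.906), Ccdc9b for Krt19 (0.91) and Chchd2 for Vim (0.885). Each is the highest of 11536 to 11582 correlations across libraries that share their culture and peak calling, and is a description only.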

How the data were processed

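ATAC-seq was performed on 14 libraries, 2 at each of 7 time points. Per the study's methods the authors ran the ENCODE ATAC-seq pipeline, and the deposited peak lists, 1 per library, passed an IDR threshold of 0.05 and a blacklist filter. The submitters' processing notes name mm10 and GRCm38, and no peak ran past a chromosome end of GRCm38. Column 4 of the deposited lists is a score of unstated scale, so it was turned into a percentile within each library. The files give intervals without read counts, so depth per region is unknown.

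Peaks were merged and assigned to GENCODE vM21 protein-coding genes with Python 3.11.15, numpy 2.4.6 and pandas 2.3.3. Calls were compared by the exact permutation tests named beside each result, tested on simulated data beforehand, at a Benjamini-Hochberg threshold of 0.05 over all regions or genes. The 10 genes, the lists and the rule for regions described were chosen with earlier results of these data known. That rule took the region nearest each TSS and up to 4 per gene that were gained or lost at 48 h or passed the trend test. Others are named where they add a time course, and were chosen after their values were seen. Alternatives covered the overlap and the distance required, the TSS set, the score, the merging gap, each library in turn, the 0 h libraries and a replicate block. Same-numbered replicates of different time points did not deviate together (r from -0.0198 to 0.0151 over 21 pairs of time points).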

Additional observations from a re-analysis of the deposited data

How the results depend on the processing

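No count or test turned its direction, but several shares crossed the share of all regions. The share gained at 48 h fell below it under 2 settings and among the regions that could be gained. The share falling with time was below it in the main run and above it without the 0 h libraries. Shares near it in the main run, such as those rising with time and lost at 2 h, changed sides under some settings. Of 798 repeats of the 47 values under other settings, 107 moved by more than the limit or crossed the threshold. With peaks required to cover 50% of a region, 9 regions were gained at 48 h (10.0%, against 14.1% of all regions), and 6, 4 and 11 were lost at 8, 16 and 48 h (6.67%, 4.44% and 12.2%, against 9.55%, 8.56% and 15.2%). With the 50000 highest-scoring peaks per library, 3 were lost at 4 h (3.33%, against 6.44%), 13 of 50 rose with time (26.0%, near the 24.0% of all regions) and 1 gene (Krt8) passed the F test (11.1%, against 5.21%). With a call in 1 library taken as enough, 26 were gained at 8 h and 26 at 48 h (28.9% each, against 18.1% and 22.6%), 12, 12, 10, 7, 10 and 14 were lost from 2 h to 48 h in order (7.78% to 15.6%, against 13% to 22.7%), and 30 were open only between (33.3%, against 23.5%). Within 20 kb 1 region was lost at 16 h (1.37%, against 6.94%). With transcript-level TSSs 5 fell (7.81%, against 11.2%), and Cdh2 had 17 regions in place of 9 and Cldn4 9 in place of 12. On covered base pairs 4 genes passed (44.4%, against 22.1%). Without the 0 h libraries 7 fell (15.6%, against 10.8%) and 6 rose (13.3%, against 7.89%). The setting on regions open only between was added after seeing the data.

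Leaving out each library gave 6 to 9 regions lost at 2 h, 5 to 9 at 4 h, 4 to 7 at 8 h, 3 to 5 at 16 h, 5 to 8 at 24 h and 7 to 11 at 48 h. A lone remaining library meets the rule for a loss more easily. It gave 5 to 13 rising regions, with 11 and 13 (19.6% and 23.6%, against 14.1% and 13.8% of all regions) without replicate 1 or 2 of 48 h, and 1 to 4 regions whose score percentile differed, with 1 without either 24 h library. The causes of these 2 shifts were not tested.

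With the replicate block 5 regions rose and 3 fell, and 4 regions open in all libraries differed in score percentile. The Epcam region 0.9 kb downstream and the Krt18 region 2.7 kb upstream then had an adjusted p of 0.0586 each, and the Cdh1 region 3.7 kb upstream 0.0515, while the Cdh1 region 16.4 kb downstream (0.0186) and the Vim TSS region (0.037) passed (exact permutation tests). As replicates share only a number, these values do not show a weaker effect. Peak lists hold no depth, so a region not called is not shown to be closed.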
